A study of Mus musculus with 10 samples.

Results

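The 6 wild-type libraries of a series of 10 RNA-seq libraries were followed along the level of Adgre1, the gene of the macrophage surface protein F4/80. Each library came from kidney cells of a separate mouse that magnetic beads against F4/80 had retained, after digestion of the perfused kidney and removal of dead cells. The 6 mice were wild-type littermates on a C57BL/6 background, aged 12 to 16 weeks. The 4 other libraries came from mice of the same ages and background that were heterozygous for C105F, a cysteine to phenylalanine substitution in Umod. The labels call the cells F4/80+ macrophages. How many of the cells in a library were macrophages was not measured, and dates of preparation were not available for this comparison.

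Wild-type replicates 4, 5 and 6 were set against replicates 1, 2 and 3, and each gene was correlated with Adgre1 over the 6 libraries. The split was selected on measured Adgre1, so all values that compare wild-type libraries are a description with no test. The mutant libraries took no part in that choice, and relations to Adgre1 were tested in them. Levels are CPM, the counts of a gene relative to the TMM-scaled library total, and differences are between means of log2 CPM.

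Resident macrophages of the kidney take up particles and immune complexes in the interstitium, secrete complement C1q and present antigen on MHC class II. Their survival depends on the growth factor receptor Csf1r, and their identity on the transcription factor PU.1, the product of Spi1. Most RNA of the kidney comes from tubules, among them the proximal tubule with its androgen-regulated transcript Kap and the thick ascending limb, which secretes uromodulin, the product of Umod. In bulk samples, fewer cells of a type and less RNA per cell cannot be told apart.

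Adgre1 (gene 13733, chromosome 17, 57358686 to 57483529 on mm10) was at 14.0, 27.5 and 63.9 CPM in wild-type replicates 1, 2 and 3 and at 102, 145 and 406 CPM in replicates 4, 5 and 6. The highest library had 29.1 times the level of the lowest, and the other 4 lay between them without a gap at the split. The mutant libraries, replicates 1, 2, 4 and 5, had 58.2, 58.6, 229 and 819 CPM. The first pair of them sat just below wild-type replicate 3, and mutant replicate 5 lay above the wild-type range.

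C1qa (gene 12259, chromosome 4, 136895916 to 136898844), a chain of complement C1q, was at 50.4, 56.4 and 119.7 CPM in replicates 1 to 3 and at 177, 324 and 739 CPM in replicates 4 to 6. Its groups did not overlap, and the libraries stood in the order of Adgre1, with a difference of 2.32 and Pearson r of 0.982 over 6 libraries. Cd74, which encodes the chaperone of MHC class II molecules, had 431, 689.8 and 1101 CPM and then 1615, 2850.0 and 6836 CPM. The order of the libraries was again that of Adgre1, with a difference of 2.20 and r of 0.989.

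Kap (gene 16483, chromosome 6, 133849855 to 133853667) was at 52074, 29873 and 31849 CPM in replicates 1 to 3 and at 33601, 24921 and 15668 CPM in replicates 4 to 6. Its groups overlapped, since replicate 4 exceeded replicates 2 and 3, with a difference of -0.64 and r of -0.896. Umod (gene 22242, chromosome 7, 119462708 to 119479262) had 15138, 11232 and 9396 CPM and then 9630.2, 5784 and 9277 CPM. It also overlapped, with a difference of -0.54 and r of -0.695.

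The label of the cells was set against markers of both cell types. The authors' FPKM values, which allow for transcript length, put Kap at 72661 and Cd74 at 288 in replicate 1, and Kap at 28013 and Cd74 at 5828 in replicate 6. Summed CPM of 20 proximal tubule markers was 93.5 times that of the resident macrophage markers in replicate 1 and 7.25 times in replicate 6. The resident macrophage markers together took 0.117% of all counts in replicate 1 and 0.869% in replicate 6. Tubule transcripts were thus in excess of macrophage transcripts in each wild-type library, and most so in replicate 1.

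**Figure D1:**
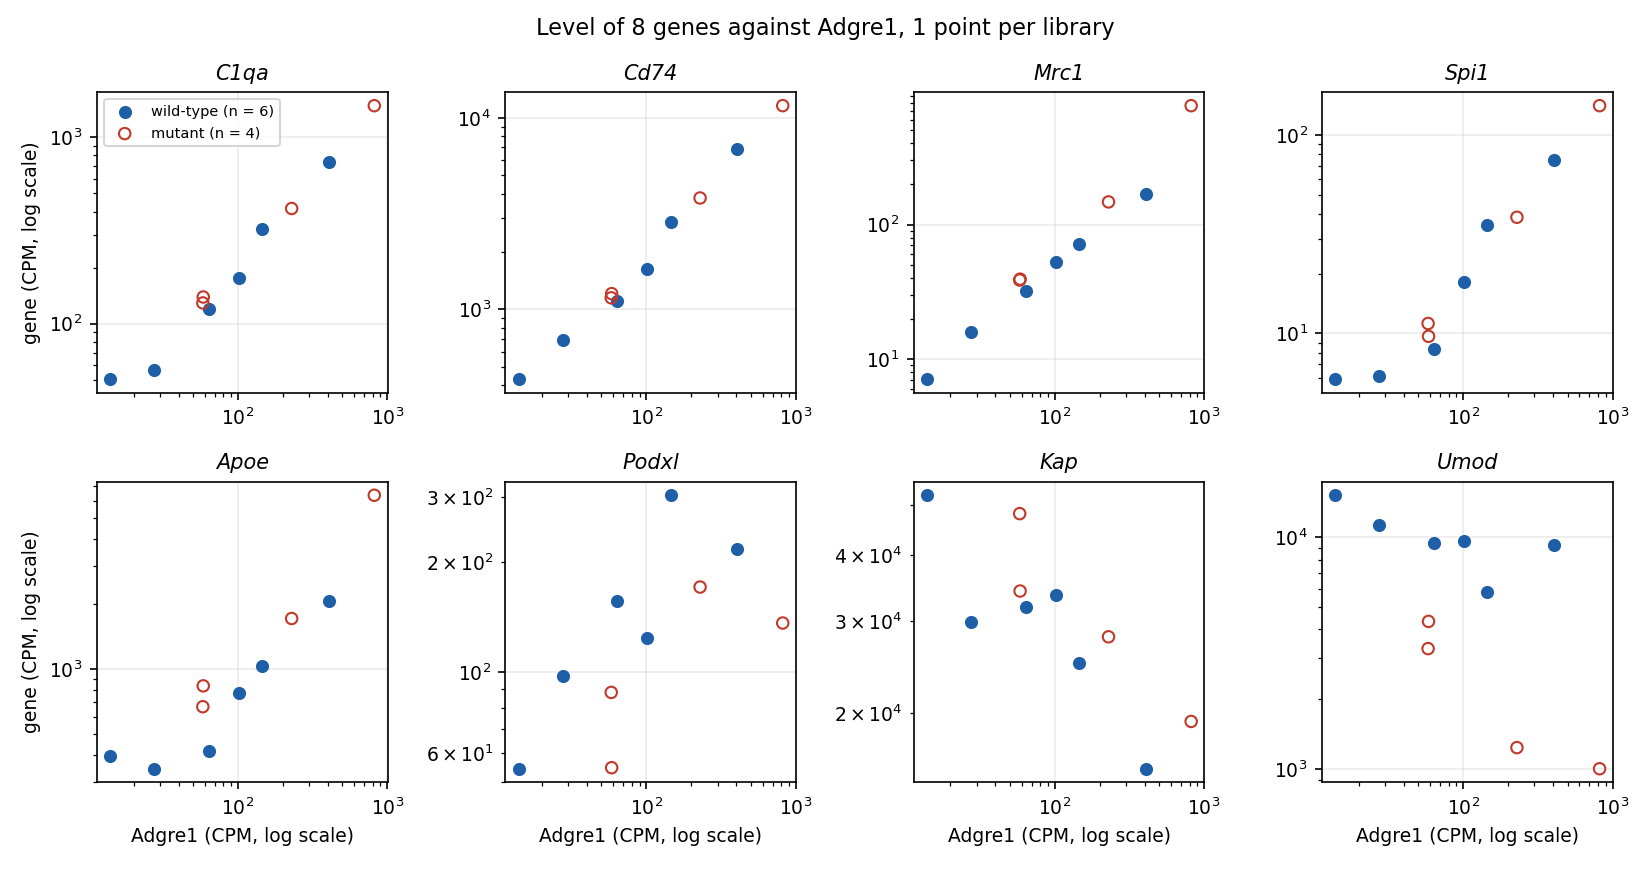
Level of selected genes (y axes, CPM, log scale) against Adgre1 (x axes, CPM, log scale), with 1 point for each of 6 wild-type and 4 mutant libraries. C1qa and Cd74 climb with Adgre1 in both genotypes, from 50.4 to 739 CPM and from 431 to 6836 CPM in wild type, while Kap runs down from 52074 to 15668 CPM.

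Promoter sequences of a few of these genes are shown so that genes that ran with Adgre1 can be read beside genes of the tubule. Printed are the 250 bases before the RefSeq start on GRCm38.p6, 5′ to 3′ on the strand of the gene. Capitals mark GAGGAA, the core of the PU.1 site, and GTTAAT, a core of the site of the tubule factor HNF1, on either strand. Mrc1 encodes the mannose receptor, C1qb a C1q chain, Cd68 a lysosomal protein of macrophages and Slc34a1 the phosphate transporter of the proximal tubule.
Mrc1 (chr2:14229164-14229413, plus strand): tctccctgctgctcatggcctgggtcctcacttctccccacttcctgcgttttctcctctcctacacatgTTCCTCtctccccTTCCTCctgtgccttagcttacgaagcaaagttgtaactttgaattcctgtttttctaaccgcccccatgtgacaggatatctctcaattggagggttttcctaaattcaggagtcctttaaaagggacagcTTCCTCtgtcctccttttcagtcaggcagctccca
C1qb (chr4:136886201-136886450, minus strand): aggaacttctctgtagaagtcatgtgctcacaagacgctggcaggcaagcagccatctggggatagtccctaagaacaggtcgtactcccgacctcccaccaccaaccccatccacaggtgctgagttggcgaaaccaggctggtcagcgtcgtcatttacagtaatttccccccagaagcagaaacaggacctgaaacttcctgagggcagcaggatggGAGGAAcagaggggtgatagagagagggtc
Cd68 (chr11:69666171-69666420, minus strand): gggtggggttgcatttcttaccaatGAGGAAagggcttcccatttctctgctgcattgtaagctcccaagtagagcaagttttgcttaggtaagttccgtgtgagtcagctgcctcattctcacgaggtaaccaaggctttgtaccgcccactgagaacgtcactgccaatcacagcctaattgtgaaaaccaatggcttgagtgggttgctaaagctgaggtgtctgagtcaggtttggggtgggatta
Slc34a1 (chr13:55399398-55399647, plus strand): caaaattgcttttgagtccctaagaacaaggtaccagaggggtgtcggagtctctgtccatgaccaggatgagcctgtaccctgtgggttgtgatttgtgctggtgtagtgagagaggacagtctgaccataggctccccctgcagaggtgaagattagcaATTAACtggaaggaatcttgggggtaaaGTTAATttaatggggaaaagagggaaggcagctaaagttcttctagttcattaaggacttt
Umod (chr7:119479263-119479512, minus strand): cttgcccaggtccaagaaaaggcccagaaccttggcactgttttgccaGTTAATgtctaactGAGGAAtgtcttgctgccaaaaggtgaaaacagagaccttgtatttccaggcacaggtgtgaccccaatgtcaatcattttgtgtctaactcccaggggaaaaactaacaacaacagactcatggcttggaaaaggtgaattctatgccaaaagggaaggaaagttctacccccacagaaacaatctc
Kap (chr6:133853668-133853917, minus strand): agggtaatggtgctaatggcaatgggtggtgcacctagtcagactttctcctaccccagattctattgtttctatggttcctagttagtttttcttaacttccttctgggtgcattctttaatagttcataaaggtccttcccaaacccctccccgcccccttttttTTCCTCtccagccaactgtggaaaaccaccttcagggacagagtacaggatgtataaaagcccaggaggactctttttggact
The printed bases of Mrc1 held 3 matches to GAGGAA, those of C1qb, Cd68, Umod and Kap held 1 each, and those of Slc34a1 held 0. Slc34a1 had 2 matches to GTTAAT and Umod had 1.

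Over all tested genes, 27.1% of 14628 promoter windows of 300 bases, from 250 before to 50 after the start, held GAGGAA on either strand. The share was 37.4% of 1087 windows among genes whose r with Adgre1 was at least 0.9. It was 51% of 306 windows among the steepest of these, and 26.3% of 730 windows among genes with r of at most -0.9. GTTAAT stood in 5.11% of all windows, 4.69% of those that ran with Adgre1 and 5.21% of those that ran against it. These are matches of letters, for which base composition was not matched and no test was made. Of 15122 genes, 11505 had at least 1 window.

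Across the transcriptome, large differences were more often in the direction of Adgre1 than against it. A gene was counted as higher, or lower, where replicates 4 to 6 did not overlap replicates 1 to 3 and the difference was at least 1 in size. Of 15123 genes, 701 were higher (4.64%) and 112 lower (0.741%). Without the limit on size the numbers were closer, with replicates 4 to 6 wholly above replicates 1 to 3 in 1817 genes and wholly below in 1647. A gene was counted as following Adgre1 where Pearson r was at least 0.9, and as opposing it at -0.9 or less. Of the 15122 genes other than Adgre1, 1067 followed (7.06%) and 759 opposed (5.02%), and with library totals in place of TMM factors 1535 followed and 365 opposed. The median difference over all genes was 0.0209 and the median r was 0.0661.

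Single libraries moved these counts. Without wild-type replicate 2, 1767 genes followed, 1364 opposed and 222 were lower. Without replicate 3, 1200 were higher, 235 lower and 1273 opposed. Without replicate 4, 1444 were higher, 209 lower and 1284 opposed, and without replicate 6, 198 were lower. At the limits themselves, Pdgfb was counted as higher with a difference of 1.0004 and BC037034 was not with 0.9947. The sizes of the negative differences of Klk1, counted, and Comp, not counted, were 1.0013 and 0.9996. Cd101 and Tmed10 lay inside and outside the limit on r at 0.9001 and 0.8999, as did Cetn2 and Atraid on the negative side at sizes of 0.9002 and 0.8999.

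Followers differed in steepness. A slope is the change in log2 CPM of a gene per unit of log2 CPM of Adgre1, so that a slope of 1 is the same fold change as that of Adgre1. Of the 1067 followers, 319 had slopes of at least 0.75, 475 lay between 0.25 and 0.75, and 273 were under 0.25. A slope of 0.25 is a 2.32-fold change over the wild-type range of Adgre1. Slopes over 1 were found for 86.

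Among genes counted as higher, Spn and Cd68 had the largest differences at a mean log2 CPM of at least 3. Spn, which encodes the leukocyte sialoprotein CD43, had 1.01, 5.99 and 11.7 CPM in replicates 1 to 3 and 13.9, 38.1 and 65.9 CPM in replicates 4 to 6, a difference of 2.96. Cd68 had 4.86, 7.54 and 11.3 CPM and then 27.2, 47.2 and 130.0 CPM, a difference of 2.88. In both the groups were separate and replicate 6 was highest. The differences of Vsir, an immune checkpoint protein, Cyth4, an exchange factor of leukocytes, Itgam, the integrin CD11b, Camk1d, a kinase, Siglece, a sialic acid receptor, Lair1, a collagen receptor, Mmp12, macrophage elastase, and Itgax, the integrin CD11c, lay between 2.65 and 2.80, beside 2.64 for Adgre1 itself.

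Mrc1 had the pattern most like that of Adgre1 among well-expressed genes (mean log2 CPM over 5). It was at 7.10, 15.9, 32.3, 52.3, 72.0 and 169 CPM in replicates 1 to 6, with r of 0.998 over 6 libraries and a slope of 0.93 (SE 0.0285). Mpeg1, which encodes perforin-2, Tyrobp, a signalling adaptor of myeloid receptors, Laptm5, a lysosomal protein of leukocytes, and H2-Aa, an MHC class II chain, came close, with r of 0.995, 0.994, 0.994 and 0.994 and slopes between 0.82 and 0.94. Tgfbr2, a receptor of TGF-beta, Ifnar1, a chain of the type I interferon receptor, Ankfy1, an endosomal protein, and Scarb2, a lysosomal membrane protein, had r of 0.994, 0.994, 0.991 and 0.989. Their slopes were only 0.39, 0.23, 0.17 and 0.17. Ifnar1 ran from 31.5 CPM in replicate 1 to 68.1 CPM in replicate 6.

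Resident macrophage markers were high with Adgre1 almost throughout. Of 25 members 24 passed the filter on low counts, and 20 of these, Adgre1 included, were higher, beside 4.64% of all genes, while 0 were lower. Their median difference was 2.39, beside 0.0209 for all genes. In the mutant libraries 22 of the 23 members other than Adgre1 rose with Adgre1 at an edgeR adjusted p under 0.05, where 12.9% of all genes did, and 17 did without mutant replicate 5. Lyz2, lysozyme, was at 63.5, 71.8 and 196 CPM in replicates 1 to 3 and at 323, 459 and 954 CPM in replicates 4 to 6. Csf1r had 37.9, 62.8 and 77.2 CPM and then 162, 262 and 543 CPM. Cx3cr1, the fractalkine receptor, had 15.2, 21.2 and 38.5 CPM and then 71.9, 135 and 299 CPM. All 3 were lowest in replicate 1 and highest in replicate 6, with no overlap.

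A few markers of the list hardly moved. Cd81, a tetraspanin made by many cells, stayed between 410.2 and 644 CPM, with a slope of 0.10. Maf, a transcription factor, and Mertk, a receptor for dying cells, had slopes of 0.08 and 0.09 and levels of 112 to 179.5 CPM and 19.9 to 36.3 CPM. Apoe, which carries lipids, was at 395, 346 and 419 CPM and then at 777, 1028 and 2056 CPM, so that the 3 lower libraries lay close together although their Adgre1 differed. Timd4, a receptor of some resident macrophages, was near the limit of counting, at 0.0381, 0 and 0 CPM and then at 0.616, 0.491 and 1.299 CPM, and Vsig4 did not pass the filter.

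Phagocytic and Fc receptors were as steep as the identity markers. Of 17 members 16 were tested, 13 were higher and 0 lower, beside 4.64% and 0.741% of all genes, with a median difference of 2.39. In mutants 15 rose with Adgre1, beside 12.9% of all genes. The list shares Mrc1, Mertk, Timd4, Cd163, Fcgr1 and Trem2 with the resident macrophage list. Stab1, a scavenger receptor, was at 6.61, 18.9 and 24.8 CPM and then at 44.4, 59.7 and 166 CPM. Axl, a receptor for dying cells, was at 26.3, 39.6 and 40.9 CPM and then at 102, 172 and 322 CPM. Both kept the order of Adgre1. Cd36, a fatty acid transporter that other kidney cells also make, was at 640.5, 754 and 431 CPM and then at 699.6, 459 and 247 CPM, with overlapping groups and r of -0.777.

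Complement genes divided into a steep and a flat part. Of 15 members 8 were higher, 8 followed Adgre1 and 0 were lower, beside 4.64%, 7.06% and 0.741% of all genes. The C1q chains C1qa, C1qb and C1qc had slopes of 0.85, 0.87 and 0.90. C3ar1 and C5ar1, receptors of the complement peptides, went from 4.99 to 90.5 CPM and from 3.62 to 49.5 CPM between replicates 1 and 6. Cfb, factor B, and C2 had slopes of -0.12 and 0.07, with levels of 317 to 718 CPM and 45.9 to 69.7 CPM. The list had a median difference of 1.54, and 0.84 without replicate 6. In mutants 12 of 15 rose with Adgre1, beside 12.9% of all genes, and 7 without mutant replicate 5.

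MHC class II genes ran with Adgre1 almost as 1 group. Of 12 members 11 followed Adgre1, 8 were higher and 0 lower, beside 7.06%, 4.64% and 0.741% of all genes. The median r was 0.983, and each member was highest in replicate 6. H2-Aa was at 212, 314 and 587 CPM in replicates 1 to 3 and at 832, 1409 and 3173 CPM in replicates 4 to 6. H2-Ab1 and H2-Eb1, chains of the same class, went from 222 to 2715 CPM and from 239 to 3016 CPM. Ciita, the transactivator of these genes, was at 0.552, 4.51 and 7.08 CPM and then at 12.4, 18.8 and 52.0 CPM, with the steepest slope of the list, 1.22 (SE 0.166). In mutants 11 of 12 rose with Adgre1, beside 12.9% of all genes. H2-Eb2 was the member that did not, at 0.176 to 1.86 CPM in wild type.

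Dendritic cells also carry MHC class II, and markers of them ran with Adgre1 too. Of 16 markers of conventional dendritic cells 6 were higher and 9 followed Adgre1, beside 4.64% and 7.06% of all genes. In mutants 10 rose with it, beside 12.9% of all genes. Xcr1 and Clec9a, which mark the cross-presenting type, were at 0.229 and 0.895 CPM in replicate 1 and at 6.45 and 9.93 CPM in replicate 6. Flt3, their growth factor receptor, did not exceed 4.09 CPM. The median difference of the list was 1.40, and 0.84 without replicate 1 or 6, and 15 of the 16 members had positive differences. The exception was Cd24a, with FPKM of 165 to 295 over the 6 libraries, beside 6.10 to 118 for Mgl2 and 10.2 to 65.6 for Sirpa. The summed CPM of the list, Cd24a included, was 512 to 671 in replicates 1 to 3 and 526 to 1049 in replicates 4 to 6. Resident macrophage markers had 1339.7 to 1842 and 2813 to 7914. The sum thus does not show how far the other members rose. The part of dendritic cells in the MHC class II values was not tested.

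Transcription factors of macrophages were split in the same way. Of 15 members 7 were higher and 0 lower, beside 4.64% and 0.741% of all genes. In mutants 10 rose and 1 fell with Adgre1, beside 12.9% and 7.44% of all genes. Spi1 was at 5.89, 6.11 and 8.40 CPM in replicates 1 to 3 and at 18.1, 35.2 and 74.7 CPM in replicates 4 to 6. Its lower libraries were nearly level and its upper ones spread widely. Runx1 and Ikzf1, regulators of blood cell fate, had slopes of 0.94 and 0.69, and Irf8, a regulator of myeloid cells, of 0.54. Tfeb and Cebpa, which tubules also express, had slopes of 0.03 and -0.01, and that of Cebpa changed sign in its difference between scalings. Cebpb was at 0.976 CPM in replicate 2 and at 9.66 to 29.1 CPM in the other 5. Tfec was the member that fell in mutants (slope -0.18, edgeR adjusted p = 0.0426). Without mutant replicate 4, 3 members fell. The edgeR adjusted p of Tfec was 0.137 without mutant replicate 1, 0.137 without 2 and 0.272 without 5.

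Chemokines and their receptors were partly steep and partly unrelated to Adgre1. Of 21 members 9 were higher and 0 lower, beside 4.64% and 0.741% of all genes. In mutants 16 rose and 1 fell with Adgre1, beside 12.9% and 7.44% of all genes. Ccr2, the receptor that brings monocytes into tissue, was at 7.18, 7.73 and 14.0 CPM and then at 20, 67.9 and 79.3 CPM. Ccl6 and Ccl9, chemokines of myeloid cells, had r of 0.986 and 0.987. Ccl3 and Ccl4 were lowest in replicate 4, at 3.60 and 5.67 CPM, and had r of only 0.405 and 0.314. Cxcl1, which attracts neutrophils, was at 2.59, 6.26 and 1.94 CPM and then at 0.154, 1.62 and 5.99 CPM. It fell with Adgre1 in mutants (slope -0.65, edgeR adjusted p = 0.034), with an adjusted p in edgeR of 0.075 without mutant replicate 1 and 0.0915 without 2. The median difference of the list was 0.84, and 1.89 without replicate 3, 1.75 without replicate 4 and 0.48 without replicate 6. Without mutant replicate 5, 8 rose and 2 fell in mutants, and without mutant replicate 4, 2 fell.

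Genes induced by interferon and NF-kB were shallower. All 15 interferon genes had positive differences and were highest in replicate 6, but 2 were counted as higher, Ifit2 and Oas1a, beside 4.64% of all genes. Oas1a, an antiviral enzyme of the pathway, was at 3.83, 3.79 and 4.24 CPM and then at 7.70, 15.7 and 29.4 CPM. The median difference of the 15 genes was 0.71, and 0.34 without replicate 6. In mutants 12 of the 15 rose with Adgre1, beside 12.9% of all genes, and 1 without mutant replicate 5. Of 16 NF-kB and cytokine genes 1 was higher, Nlrp3, beside 4.64% of all genes. In mutants 7 of the 16 rose and 1 fell with Adgre1, beside 12.9% and 7.44% of all genes. The number that rose was 0 without mutant replicate 5, and the number that fell was 2 without mutant replicate 2. Il1b was at 30.5, 54.5 and 16.5 CPM and then at 15.4, 72.0 and 113 CPM with overlapping groups. Replicate 4 was its lowest library, as for 7 of the 21 chemokine and receptor genes.

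Markers of other leukocytes were scarce or mixed. Of 16 monocyte markers 6 were higher and 7 followed Adgre1, beside 4.64% and 7.06% of all genes, with a median difference of 1.92. F13a1, a transglutaminase, was at 1.22, 3.36 and 1.27 CPM and then at 5.67, 12.4 and 24.7 CPM, while Ly6c2, a mark of inflammatory monocytes, stayed between 2.81 and 9.92 CPM with overlapping groups. Of 15 neutrophil markers 8 were tested, and Ly6g, Ngp, Camp, Elane and Mpo had 0 counts in the 6 wild-type libraries. Their summed CPM was 6.86 to 19.3 in replicates 1 to 3 and 14.8 to 39.5 in replicates 4 to 6.

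Lymphocyte markers were mixed. Of 14 tested T cell markers 1 was higher and 1 lower, beside 4.64% and 0.741% of all genes. The first was Cd4, at 0.667, 1.90 and 5.02 CPM and then at 6.18, 6.97 and 32.8 CPM, while Cd3e, Cd3d and Cd3g, the defining chains of T cells, were at most 0.545, 0.997 and 1.08 CPM. The other was Cd8a, at 4.40, 3.30 and 6.30 CPM and then at 1.47, 1.499 and 2.03 CPM. Summed CPM of the T cell list was 8.32 to 22.2 in replicates 1 to 3 and 10.6 to 45.8 in replicates 4 to 6. Of 12 B and plasma cell markers 2 followed Adgre1 and 1 rose in mutants, beside 7.06% and 12.9% of all genes. The mean log2 CPM of these 12 markers had r of 0.886 with Adgre1 over 6 libraries, beside 0.610 for T cells. In mutants 2 rose without mutant replicate 2 and 0 without mutant replicate 5. Cd79b, of the B cell receptor, had r of 0.979 at 0.914 to 11.9 CPM. The T cell median of 0.33 changed sign without replicate 1 (-0.47), 2 (-0.31) or 6 (-0.17), and was 1.13, 0.60 and 0.61 without replicates 3, 4 and 5. The B cell median of 0.94 was -0.07 without replicate 1.

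**Figure D2:**
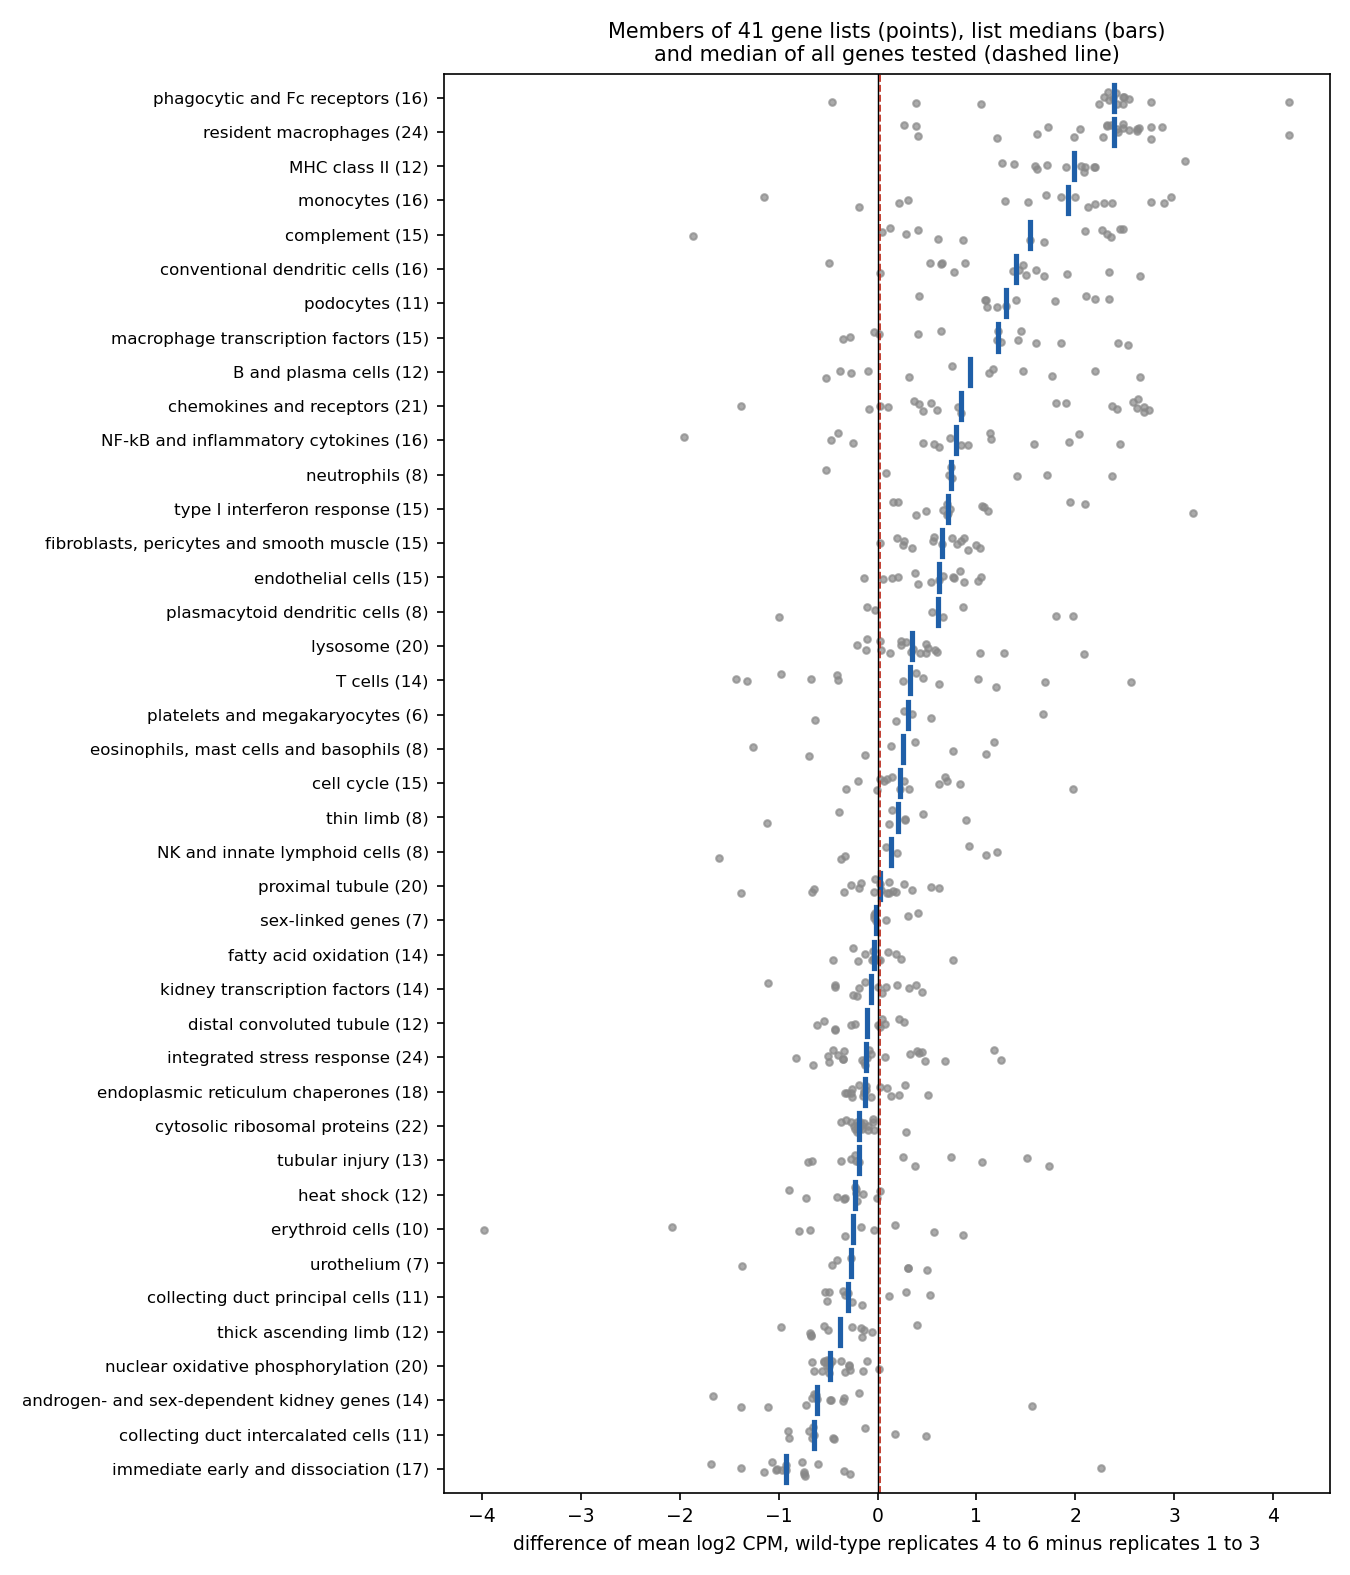
Difference of mean log2 CPM between wild-type replicates 4 to 6 and 1 to 3 (x axis) for the tested members of the gene lists (rows), with each list's median beside the median of all genes, 0.0209. Phagocytic receptors (2.39) and resident macrophages (2.39) have the highest medians of the 41 lists, and immediate early genes (-0.92) the lowest.

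Podocytes, the cells of the glomerular filter, had an order of their own. All 11 markers had positive differences, but 9 of them were highest in replicate 5, and 1 followed Adgre1, a share near the 7.06% of all genes. Podxl, podocalyxin, was at 54.5, 97.7 and 156 CPM in replicates 1 to 3 and at 124, 304 and 216 CPM in replicates 4 to 6. Replicate 3 lay above replicate 4. Podocyte markers had a median difference of 1.297, and 0.83 without replicate 1. In mutants 3 of 11 rose with Adgre1, beside 12.9% of all genes, Plce1 and Ptpro among them. Plce1 had an edgeR adjusted p of 0.058, 0.0606 and 0.0873 without mutant replicate 1, 2 and 5. Without mutant replicate 4 or 5, 6 and 6 rose.

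Fibroblast collagens were high in replicates 3 and 6. Col3a1 was at 6.99, 17.7 and 77.0 CPM and then at 7.70, 23.9 and 170.2 CPM. Col1a1 was at 5.85, 11.7 and 49.2 CPM and then at 7.87, 15.1 and 135 CPM. Smooth muscle actin, Acta2, was at 75.1, 59.0 and 43.7 CPM and then at 59.8, 58.9 and 83.3 CPM and showed no such peaks. Of 15 fibroblast, pericyte and smooth muscle genes 1 was counted as higher, Ren1, the renin gene, a share near the 4.64% of all genes. The median difference of the list, 0.66, was 0.03 without replicate 6, 0.24 without replicate 1, 1.11 without replicate 3 and 1.20 without replicate 4. In mutants 7 of 15 rose with Adgre1, beside 12.9% of all genes, Col1a1, Col1a2 and Col3a1 among them, and 3 without mutant replicate 5. Col1a1 was not called without that library (edgeR adjusted p = 0.0646).

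Endothelial markers were highest in replicate 6 in 12 of 15 cases and lowest in replicate 1 in 9. Eng, endoglin, was the 1 member of 15 counted as higher, a share near the 4.64% of all genes. It was at 24.9, 47.9 and 52.3 CPM and then at 57.0, 70.5 and 129 CPM. Pecam1, CD31, was at 32.3, 62.0 and 43.3 CPM and then at 49.0, 69.2 and 92.5 CPM with overlapping groups. The median difference was 0.62, and 0.36 without replicate 1 and 0.40 without replicate 6. In mutants 2 of 15 rose with Adgre1, a share near the 12.9% of all genes, 6 without mutant replicate 1 and 0 without mutant replicate 2.

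Proximal tubule markers were divided between libraries. Of 20 markers 0 were higher and 1 lower, beside 4.64% and 0.741% of all genes. Of the same 20, 10 were highest in replicate 4, and 11 were lowest in replicate 6, which had the most Adgre1. Their median difference of 0.03 changed sign without replicate 3 (-0.14), 4 (-0.10) or 5 (-0.03), and was 0.12, 0.04 and 0.27 without replicates 1, 2 and 6. Slc34a1 was at 7291, 5314 and 4229.8 CPM and then at 7841, 6217 and 4639.6 CPM. The lower member was Slc22a7, an organic anion transporter, at 99.3, 78.9 and 121 CPM and then at 44.99, 22.6 and 52.9 CPM. In mutants 1 fell with Adgre1, Slc5a2, the glucose transporter SGLT2, a share under the 7.44% of all genes. Without mutant replicate 4, 11 markers fell, beside 1597 of all genes. The edgeR adjusted p of Slc5a2 was 0.0724 without mutant replicate 1 and 0.112 without 2.

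The thick ascending limb was lowest in replicate 5 for 9 of 12 markers. Egf, the precursor of epidermal growth factor, was at 5897, 5522 and 4609 CPM and then at 3668, 2789 and 3583 CPM, and its groups did not overlap. Slc12a1, the sodium transporter NKCC2, was at 1959.9, 1790.2 and 1685 CPM and then at 1623, 1243 and 2123 CPM, highest in replicate 6. The median difference was -0.38, and -0.22 without replicate 5. In mutants 7 of 12 fell with Adgre1, beside 7.44% of all genes, and 4 without mutant replicate 2. Umod fell there by 0.53 per unit of log2 Adgre1 (SE 0.0940, edgeR adjusted p = 0.011), at 3306, 4331, 1238 and 1004 CPM in mutant replicates 1, 2, 4 and 5. The mutant values lay below all wild-type ones. The slope of Umod in wild type was -0.18, and the difference of the slopes, -0.36 (SE 0.127), had an edgeR adjusted p of 0.834.

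Collecting duct cells peaked in replicate 3. Of 11 principal cell markers 10 were highest there, as were 10 of 11 intercalated cell markers, and no member of either list was counted as higher or lower. The summed CPM of the principal cell list was 3750.1 in replicate 3 and between 1997 and 2399.8 in the other 5. Aqp2, the water channel of principal cells, was at 702, 529 and 1104 CPM and then at 773, 894 and 758 CPM. Slc26a4, pendrin of intercalated cells, was at 189, 208 and 305 CPM and then at 117, 172 and 139 CPM. The medians of the lists were -0.30 (-0.01 without replicate 3 and -0.47 without replicate 1) and -0.64. In mutants 3 intercalated cell markers and 0 principal cell markers fell with Adgre1, where 7.44% of all genes did. Of the intercalated cell markers 1 fell without mutant replicate 1 and 0 without mutant replicate 2.

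Nuclear genes of mitochondrial respiration ran against Adgre1 with small slopes. No member of 20 reached a difference of 1 in size, but 11 had replicates 4 to 6 all below replicates 1 to 3, where 10.9% of all genes did. Of the 20, 6 opposed Adgre1, beside 5.02% of all genes, and the median r was -0.875. Replicate 6 was lowest in 20 and replicate 1 highest in 19. Cox4i1, of cytochrome c oxidase, was at 3369, 1749 and 1942 CPM and then at 1763, 1615 and 1399 CPM. Atp5b, of ATP synthase, was at 5404, 4687 and 4128 CPM and then at 4478, 3835 and 3416 CPM. Replicate 1 stood apart more for Cox4i1 than for Atp5b. The 20 genes had a median difference of -0.48, and -0.26 without replicate 1. In mutants 15 fell with Adgre1, beside 7.44% of all genes, 1 without mutant replicate 1 and 1 without mutant replicate 2.

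The genes whose r was nearest to -1, in the same range of levels, had small slopes. Psma3, a proteasome subunit, was at 274, 234, 196, 172, 155 and 129 CPM in replicates 1 to 6, with r of -0.998 and a slope of -0.23. The order was the exact reverse of Adgre1. Psma7, another proteasome subunit, Mdp1, a phosphatase, Anapc16, of the anaphase-promoting complex, Rmnd1 and Fars2, of mitochondrial translation, Pfdn2, of the prefoldin chaperone, Oard1, an ADP-ribose glycohydrolase, Drg1, a GTPase, and Med28, of the Mediator complex, had slopes between -0.23 and -0.11. In mutants Psma3, Anapc16, Fars2, Med28 and Oard1 fell with Adgre1, with edgeR adjusted p between 0.018 and 0.0372 over 4 libraries. None of the 5 was called without mutant replicate 2 or 5, with edgeR adjusted p of 0.0579 to 0.374, and without mutant replicate 1 Fars2 alone was.

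Among genes counted as lower, those with the largest differences at a mean log2 CPM of at least 3 were mostly not ordered by Adgre1. Serpina1f, of the antitrypsin family, was at 16.8, 17.3 and 58.9 CPM in replicates 1 to 3 and at 3.54, 2.07 and 16.3 CPM in replicates 4 to 6, with r of -0.301. Serpina1d, a close copy, was at 28.6, 20.7 and 75.1 CPM and then at 5.89, 5.29 and 19.3 CPM. Reads of such copies can be split between them, so both values are uncertain. Cyp7b1, an oxysterol hydroxylase, was at 30.0, 33.3 and 75.6 CPM and then at 9.04, 10.8 and 23.98 CPM. Replicate 3 was highest for all 3. S100g, a calcium-binding protein of the distal nephron, was at 1221, 650.1 and 1213 CPM and then at 288, 386 and 334 CPM. Defb29, a defensin, was at 67.3, 57.4 and 48.1 CPM and then at 30.4, 26.3 and 14.0 CPM, and did run against Adgre1 with r of -0.972, as did Dpm1, of glycan synthesis, with r of -0.964. Mep1b, a protease of the brush border, Gm6300, Bhlhe40, a transcription factor, and Mdm4, a p53 regulator, had differences between -1.32 and -1.22, and that of Mdm4 was 0.20 when the most abundant transcript stood for the gene.

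Androgen- and sex-dependent genes of the kidney tended to be lower where Adgre1 was higher. Of 14 members 1 had a positive difference. Odc1, ornithine decarboxylase, was at 2354, 1929 and 1162 CPM and then at 1267, 771 and 538 CPM, with r of -0.976 and overlapping groups. The median difference was -0.61, and -0.39 without replicate 2, -0.98 without replicate 4 and -0.25 without replicate 6. The positive member was Cyp4a14, a fatty acid hydroxylase, at 58.3, 22.2 and 78.1 CPM and then at 89.3, 144 and 203 CPM. It rose with Adgre1 in mutants (slope 1.02, edgeR adjusted p = 0.000147), at 18.2, 18.7, 97.1 and 256 CPM. In mutants Acsm3, an acyl-CoA synthetase, and Slc22a30, a transporter, fell, where 7.44% of all genes did. Neither was called without mutant replicate 1, 2 or 5, with edgeR adjusted p of 0.0564 to 0.581. Without mutant replicate 4, 8 of the 14 members fell, beside 1597 of all genes. Sex did not differ between the libraries by these markers: Xist had 0 counts in all 6, and the Y-linked gene Ddx3y was at 41.6 to 52.6 CPM.

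Immediate early genes, which cutting and digestion of tissue can induce, followed the library and not Adgre1. Of 17 members 16 were lowest in replicate 4 and 12 highest in replicate 2. Fos was at 867, 912 and 404 CPM and then at 199.6, 442 and 529 CPM. Fosb was at 145, 313 and 49.9 CPM and then at 18.7, 42.1 and 87.4 CPM. Both overlapped between the groups. Ier2 and Ier3 were the 2 of 17 members counted as lower, beside 0.741% of all genes. Ier3 was at 109, 169.8 and 52.3 CPM and then at 28.6, 40.2 and 47.6 CPM. The median difference of the list, -0.92, was -0.49 without replicate 2 and -0.35 without replicate 4. Jund was at 1.18 CPM in replicate 1 and at 143 to 311 CPM in the other 5. In mutants 1 of 17, Fosb, fell with Adgre1, a share under the 7.44% of all genes. The edgeR adjusted p of Fosb was 0.0682 without mutant replicate 4 and 0.161 without 5.

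**Figure D3:**
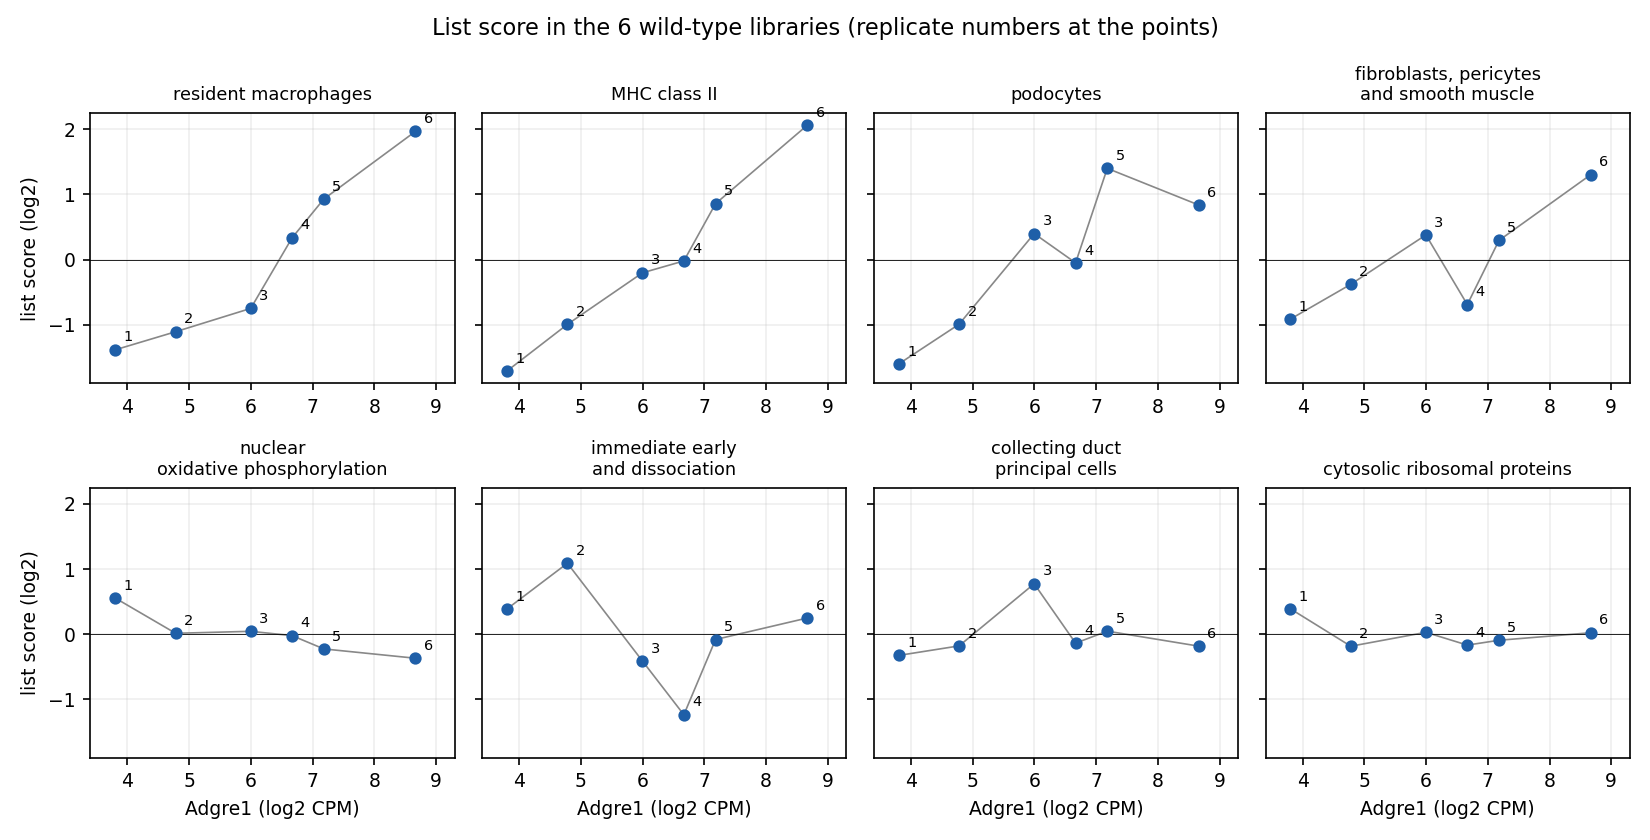
List score (y axes, mean log2 CPM of the members, each centred on its mean over the 6 wild-type libraries) against log2 CPM of Adgre1 (x axes), with 1 point for each wild-type library. The scores of resident macrophages and MHC class II climb from -1.38 and -1.71 in replicate 1 to 1.97 and 2.06 in replicate 6, podocytes peak in replicate 5 at 1.40, principal cells in replicate 3 at 0.77, and immediate early genes are lowest in replicate 4 at -1.24.

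The integrated stress response, which kinases of translation factor eIF2 switch on through ATF4, did not run with Adgre1 as a list. Of 25 members 24 were tested, and 0 were higher or lower, beside 4.64% and 0.741% of all genes. Of the 24, 2 followed Adgre1 and 1 opposed it, shares near the 7.06% and 5.02% of all genes. The median difference was -0.12 (-0.03, -0.18 and -0.03 without replicates 1, 2 and 5). Asns, asparagine synthetase, was at 6.00, 4.88, 4.26, 3.97, 3.52 and 3.17 CPM in replicates 1 to 6, with r of -0.986 and a slope of -0.19. Slc7a5, an amino acid transporter, was at 3.50, 4.18, 4.61, 4.88, 5.53 and 6.37 CPM, with r of 0.991 and a slope of 0.17. These are opposite orders over narrow ranges. Nupr1, a stress-induced cofactor, was at 5.35, 6.42, 11.7, 7.48, 12.8 and 17.5 CPM, with r of 0.901. Atf4 itself was at 72.1, 77.5, 70.6, 42.1, 50.7 and 72.7 CPM and Ddit3, which encodes CHOP, at 8.76, 7.57, 11.9, 5.84, 7.16 and 9.19 CPM, neither in the order of Adgre1. For 12 of the 24 members all 4 mutant libraries lay above all 6 wild-type ones, whatever their Adgre1, which was so for 0.946% of all genes.

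In mutants 1 of 24 stress response genes fell with Adgre1, a share under the 7.44% of all genes. It was Trib3, a pseudokinase induced by ATF4. Trib3 was at 47.8, 58.2, 22.8 and 24.9 CPM in mutant replicates 1, 2, 4 and 5 and at 0.349 to 0.997 CPM in wild type. Its slope in mutants was -0.31 (SE 0.0808, edgeR adjusted p = 0.0374), and the edgeR adjusted p was 0.0822 without mutant replicate 1 and 0.117 without mutant replicate 2. Without mutant replicate 4 or 5, 7 and 5 members of the list fell, beside 1597 and 342 of all genes.

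**Figure D4:**
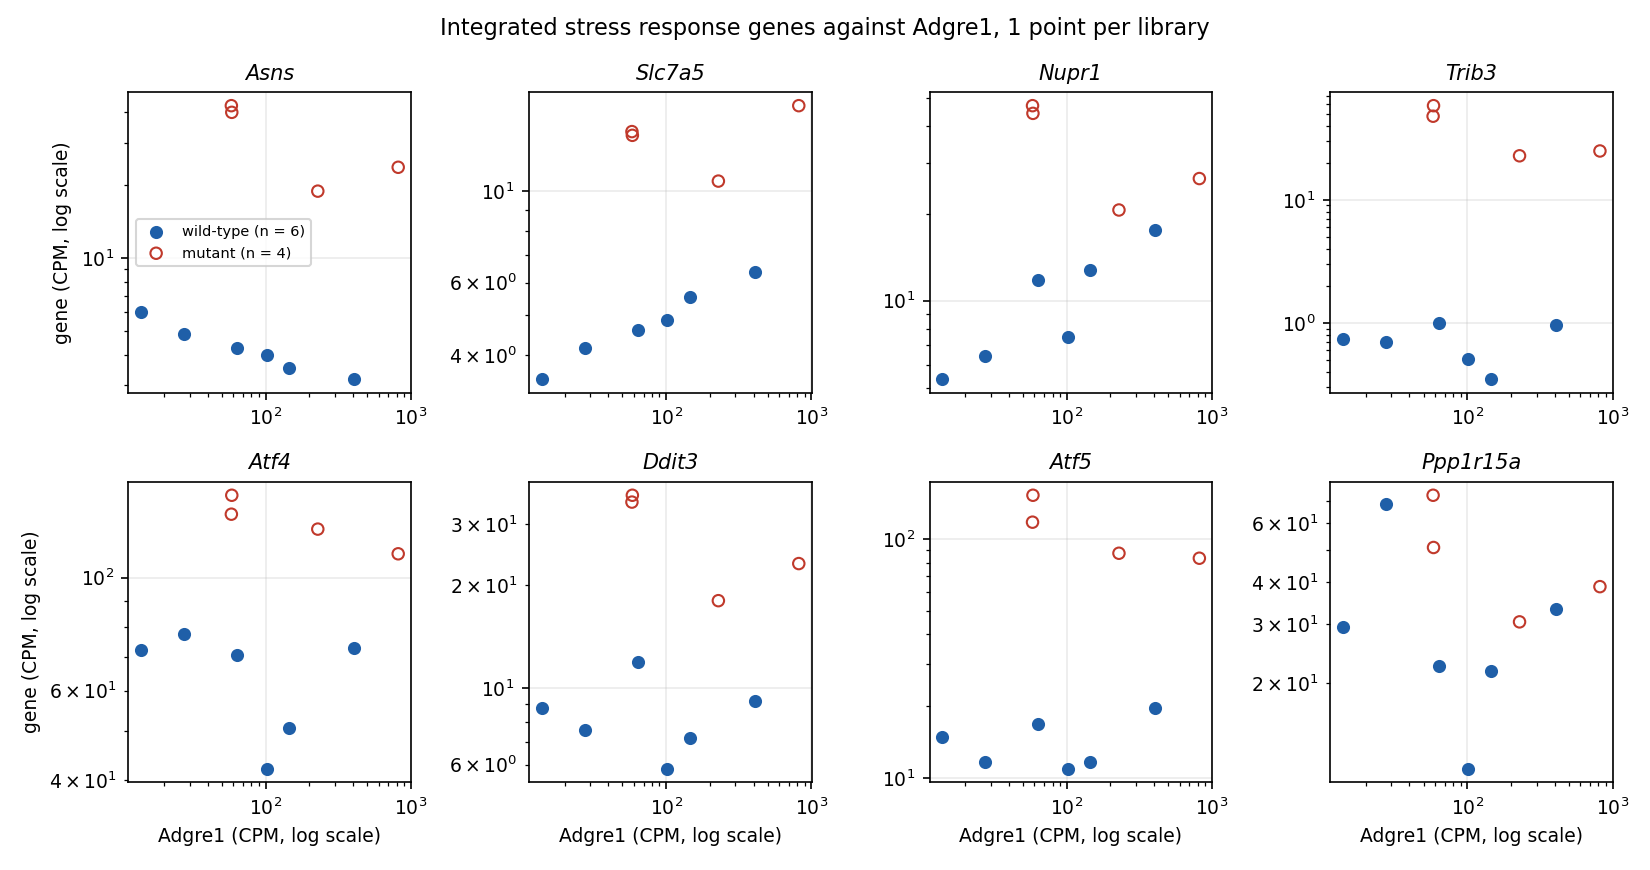
Level of integrated stress response genes (y axes, CPM, log scale) against Adgre1 (x axes, CPM, log scale), with 1 point for each of 6 wild-type and 4 mutant libraries. In wild type Asns runs down from 6.00 to 3.17 CPM and Slc7a5 up from 3.50 to 6.37 CPM, and the mutant points of both lie above all wild-type points.

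Lysosome genes held steep and flat members. Of 20 members 17 had positive differences, 3 followed Adgre1 and 2 were higher, beside 7.06% following and 4.64% higher of all genes. The 2 were Ctss and Ctsc, cathepsins with slopes of 0.79 and 0.49, while the widely made Lamp1 and Ctsd had slopes of 0.02 and -0.07. The median difference was 0.35, and 0.21 without replicate 6. In mutants 7 rose and 2 fell with Adgre1, beside 12.9% and 7.44% of all genes. The number that rose was 3 without mutant replicate 1, 11 without 4 and 2 without 5, and the number that fell was 0 without 1, 2 or 5.

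Ribosomal protein genes were highest in replicate 1 in 20 of 22 cases, with a median difference of -0.18, of -0.01 without that library and of -0.35 without replicate 2. Heat shock genes had a median of -0.22, and -0.35 and -0.39 without replicates 3 and 6. Cell cycle genes had 0.22, but 0.15, 0.84 and -0.05 without replicates 1, 4 and 6. Of the 15 cell cycle genes 4 rose in mutants, beside 12.9% of all genes, 2 without mutant replicate 1 and 0 without mutant replicate 5. The medians of fatty acid oxidation, kidney transcription factor and sex-linked genes, -0.04, -0.06 and -0.01, changed sign between scalings. Leaving out 1 library at a time, they ran from -0.170 to 0.0891, from -0.125 to -0.00474 and from -0.0431 to 0.0808. Total-count scaling moved the median of all genes to 0.12.

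The mutant libraries showed how far these relations held in other mice. In them 1945 genes rose with Adgre1 (12.9%) and 1125 fell (7.44%) by edgeR's quasi-likelihood test at an adjusted p under 0.05. Of the 1067 genes that followed Adgre1 in wild type, 797 rose in mutants (74.7%) and 1 fell. Of the 759 that opposed it, 314 fell (41.4%) and 0 rose. Of the 700 genes higher in wild-type replicates 4 to 6 other than Adgre1, 501 rose (71.6%). The share was 87.6% of the 451 that also followed Adgre1 and 42.6% of the 249 that did not. Of the 112 lower genes 20 fell (17.9%).

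Among single genes, C1qa (slope 0.90, SE 0.0530), Cd74 (0.87, SE 0.0621) and Mrc1 (1.11, SE 0.0552) rose in mutants with edgeR adjusted p of 0.000129, 0.000235 and 0.000109. Mrc1 was at 38.7, 39.3, 147 and 764 CPM there. Kap was at 48038, 34198, 27966 and 19286 CPM in mutants, with a slope of -0.29 (SE 0.0877, edgeR adjusted p = 0.0613) that did not pass. The mutant calls rested on few libraries, since mutant replicates 1 and 2 had nearly equal Adgre1. Without mutant replicate 5, 511 genes rose and 342 fell. Without replicate 1, 425 fell, and without replicate 2, 271 fell. With total-count scaling 2390 rose and 581 fell.

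With genes grouped by wild-type slope, median mutant slopes were of like size, except among the steepest genes. Lists could differ more. Median slopes in wild type and mutants were -0.08 and -0.38 for the thick ascending limb and 0.41 and 0.12 for B and plasma cells. They were 0.25 and 0.10 for endothelial cells, and closer for resident macrophages, 0.83 and 0.92. Wild-type slopes are least squares fits on log2 CPM and mutant slopes are edgeR fits on counts, so the measures are not identical. Across 15122 genes the wild-type and mutant slopes had Pearson r of 0.705 and Spearman rho of 0.723, a description across genes, which are not independent. Genes with wild-type slopes of 0.25 to 0.5 had a median mutant slope of 0.34, those of 0.5 to 0.75 had 0.65, and those under -0.25 had -0.24.

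**Figure D5:**
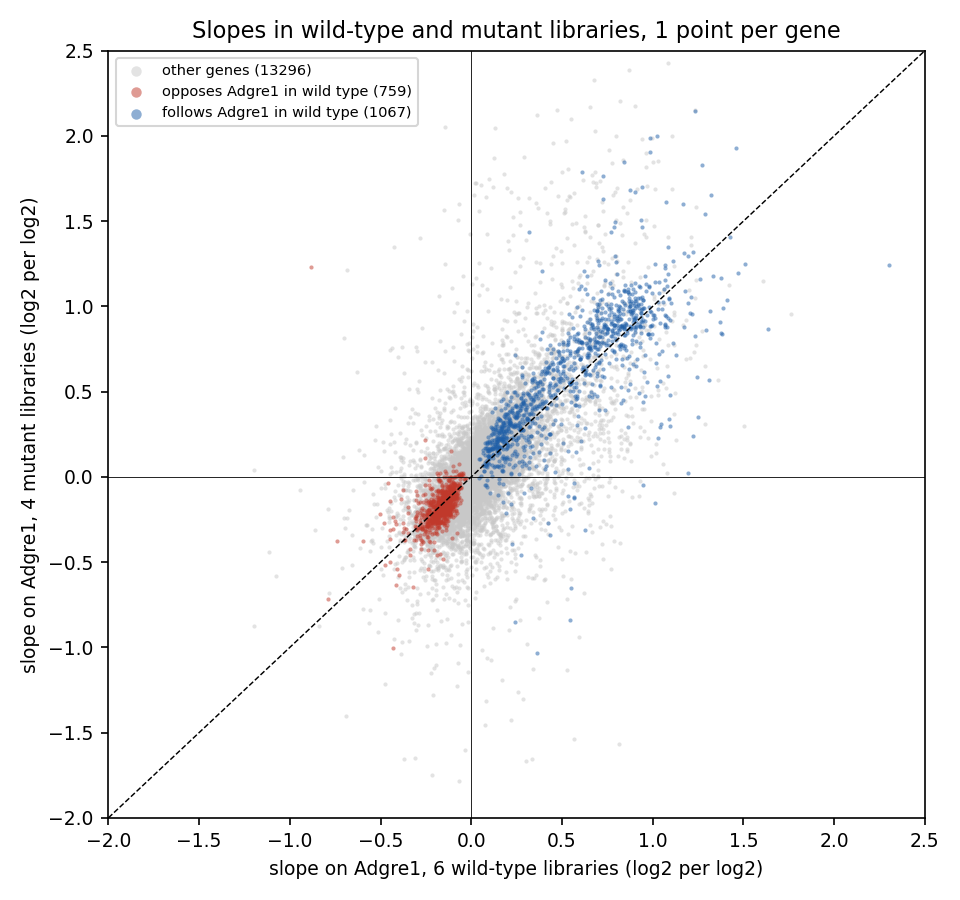
Slope of each gene on log2 CPM of Adgre1 in 6 wild-type libraries (x axis) and in 4 mutant libraries (y axis), both in log2 per log2, with genes that followed or opposed Adgre1 in wild type marked and 9 of 15122 genes outside the axes. The median mutant slope is 0.57 for the 1067 followers and -0.17 for the 759 opposing genes. Wild-type slopes are least squares fits on log2 CPM and mutant slopes are edgeR fits on counts.

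The difference of slope between genotypes was called for 0 of 15122 genes in edgeR (0%), with 853 at an unadjusted p under 0.05, for 0 in limma and for 35 in DESeq2. A missed threshold does not show that the slopes were equal. The smallest p-values belonged to Itsn1, an endocytic scaffold, and Gc, the vitamin D-binding protein, with edgeR adjusted p of 0.261 and 0.261. Itsn1 had slopes of 0.24 in wild type and 0.72 in mutants, and Gc of 0.09 and -0.57. Gc was at 52.2, 38.3, 48.6, 40.2, 59.4 and 62.6 CPM in wild type and at 63.0, 70.7, 21.99 and 15.8 CPM in mutants. Its level was thus low in the mutant libraries with most Adgre1 and not in the wild-type ones. Nupr1 had slopes of 0.34 and -0.24, a difference of -0.58 (SE 0.122, edgeR adjusted p = 0.611). The differences of Ptpn1, Ranbp3l, Mfsd4a, Kyat3, Fstl3, Aqp6 and Cadm4, next by p, had edgeR adjusted p of 0.6 to 0.611. All of these were among the 35 genes called by DESeq2, with DESeq2 adjusted p of 0.00512 to 0.00862. So were Itsn1 and Gc (DESeq2 adjusted p = 1.78e-05 for each) and Nupr1 (DESeq2 adjusted p = 0.0103). The calls of these genes thus depended on the tool.

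Library totals were 57257631 to 73643200 counts in wild type and 45380415 to 63648209 in mutants, and 15317 to 16927 genes were detected. The ribosomal RNA precursor Rn45s was at 4884, 2735, 8806, 5743, 2567 and 1742 CPM in wild-type replicates 1 to 6. The share of counts in the 10 most abundant genes was highest in replicate 1, 13.2%, and lowest in replicate 6, 8.82%. Without Rn45s, the counts of higher, lower, following and opposing genes were the same as with it.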

How the data were processed

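RNA-seq was made from F4/80-selected kidney cells of 6 wild-type and 4 mutant mice, with a directional kit and poly(A) selection per the labels' protocols. The authors deposited an estimated count and an FPKM value for each transcript, and FPKM is scaled by transcript length and depth by the authors. Tools named per the submitters' processing notes are StringTie 1.3.4d, HISAT2 2.1.0, Trimmomatic 0.38, Bowtie2 2.3.4.1 and DESeq2, and the build is mm10, without a statement of what each was used for. The counts need not be whole, and copies of a gene may share them.

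The deposited counts of 36779 transcripts were summed over 24541 gene symbols, filtered with filterByExpr and TMM-scaled over 10 libraries (R 4.3.3, edgeR 4.0.16, limma 3.58.1). Log2 CPM used a prior count of 2. Totals of 45380415 to 73643200 counts per library set the precision. Groups came from the labels. The wild-type comparison has no test. In mutants each gene was fitted on log2 CPM of Adgre1 with edgeR's quasi-likelihood test, and a fit over 10 libraries tested the difference of slope between genotypes, both with Benjamini-Hochberg adjustment over 15122 genes at 0.05. DESeq2 1.42.0, for which the counts were rounded, and limma were alternatives. The tests were checked on simulated counts, where the mutant fit called 96% of 50 genes simulated with a slope of 1 and 82% of 50 with a slope of -0.5. The test of the difference of slope called 74% of 50 genes simulated with a difference of 0.5 and 64% of 50 with -0.5, and 6.32% of its calls were on unchanged genes. The changed genes were drawn only from those with a mean CPM of at least 5, with noise drawn separately for each gene. Shifts shared by many genes of a library were not simulated, so these rates need not hold for the real counts. P-values measure the spread between mice, 1 library each, as the labels give them.

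The libraries, their split and the 41 gene lists were chosen with earlier results of these data known. Named are the given markers, the 12 largest differences in each direction among genes counted as higher or lower at mean log2 CPM of at least 3, the 10 highest and 10 lowest r over 5, the 10 smallest interaction p-values at mean log2 CPM of at least 3, and list members. Several list members were chosen after their values were seen. A few genes that this rule or the lists name are not reported here. List members without a row number 1. FPKM served only to compare levels between genes. Promoter sequences are from RefSeq on GRCm38.p6. Alternatives covered scaling, filters, the most abundant transcript, a macrophage score in place of Adgre1, thresholds, tools and leaving out each library.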

Additional observations from a re-analysis of the deposited data

Results flagged for a closer look

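In each group of 6 or 4 libraries, the gap between an extreme value and its nearest neighbour was divided by the range of the group and set against Dixon's 95% critical value. Of 437 groups checked 25 exceeded it (5.72%), and chance flags about 1 in 20 groups.

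Wild-type replicate 3 stood apart above the others in the scores of the distal convoluted tubule list (gap over range of 0.754) and the collecting duct principal cell list (0.661). The same library was highest for Hsd11b2 (1071 CPM, next 625, gap over range of 0.676), the enzyme that protects the mineralocorticoid receptor, and Tmem52b (917 CPM, next 542, 0.700).

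Wild-type replicate 1 stood above the others in the ribosomal protein score (0.628) and for Rplp0 (1488 CPM, next 1072, 0.894), Rps2 (1499 CPM, next 1013, 0.727), Rps3 (1467 CPM, next 943, 0.693), Cox4i1 (3369 CPM, next 1942, 0.627) and the chaperone Pdia3 (1056 CPM, next 833, 0.660).

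Wild-type replicate 6 was highest for the interferon-induced gene Bst2 (65.0 CPM, next 27.0, 0.723), for the keratin Krt5 (4.23 CPM, next 1.505, 0.659) and for Slc7a3 (0.0559 CPM where the others had 0, 1.00). Replicate 4 was lowest for the hemoglobin gene Hba-a2 (0.154 CPM, next 218, 0.733) and the plasma cell marker Sdc1 (16.5 CPM, next 20.7, 0.660), and highest for the stress gene Sesn2 (60.4 CPM, next 32.9, 0.639). Replicate 2 was lowest for Cebpb (0.976 CPM, next 9.66, 0.673).

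Among the 4 mutant libraries, replicate 5, which had the most Adgre1, was highest for Bst2 (107 CPM, next 31.4, 0.903), Cd81 (711 CPM, next 456, 0.858) and Krt15 (14.4 CPM, next 4.45, 0.863) and lowest for Cyp4b1 (3489 CPM, next 6230.0, 0.844). Mutant replicate 4 was lowest for the chaperone Calr (1076 CPM, next 1292, 0.892) and the stress response gene Mthfd2 (20.1 CPM, next 27.2, 0.888). Mutant replicate 2 was lowest for Aqp2 (789.6 CPM, next 1205, 0.844), and mutant replicate 1 was highest for Emcn, of endothelium (61.4 CPM, next 55.0, 0.866).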

How the results depend on the processing

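With library totals, 74 genes were lower, 365 opposed Adgre1 and 581 had a called negative slope in mutants. With a mean CPM of at least 5, 384 were higher and 33 lower. With the most abundant transcript for each gene, 910 positive and 267 negative mutant slopes and 3 differences of slope (Camsap1, Jazf1 and Mtcl1) were called, and the difference of Mdm4 turned from -1.22 to 0.20. With a macrophage score in place of Adgre1, 489 opposed it. A minimum difference of 0.58 gave 1063 higher and 455 lower genes, and 2 gave 363 and 14. An r of at least 0.8 in size gave 2236 and 1942. DESeq2 called 1813 negative mutant slopes and 35 differences of slope. The cause of these changes was not tested. Leaving out 1 library at a time gave 619 to 1444 higher, 125 to 235 lower, 1010 to 1767 following and 654 to 1364 opposing genes, 20 to 26 lists with a positive median, 511 to 2015 positive and 271 to 1597 negative mutant slopes, and 0 to 1 differences of slope, the call being Pnp2 without mutant replicate 5. Of the values of single named genes and lists under the alternatives that kept all libraries, 687 mutant slopes kept their call and 40 lost it, and 1555 wild-type differences stayed within the spread while 14 moved. When 1 mutant library at a time was left out, 228 mutant slopes of named genes kept their call and 64 lost it. Deviations of mutant and wild-type libraries with the same replicate number had correlations of 0.426, 0.278, 0.0174 and 0.445 for numbers 1, 2, 4 and 5. Mutant replicate 1 correlated best with its own number, and mutant replicates 2, 4 and 5 with other numbers. Whether the numbers pair libraries cannot be told from these values. Adgre1 rose with the replicate number in both genotypes, so relations to Adgre1 and to the number cannot be told apart. With the replicate number as a block in the 8 libraries with shared numbers, 0 differences of slope were called. There were 526 at an unadjusted p under 0.05 in edgeR, against 1078 without the block. Genes under about 1 CPM rest on few counts, and the depth limits what can be said of them.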
